A study of Homo sapiens with 12 samples.

Results

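ISG15 and the enzymes that attach it to and remove it from proteins were followed through the response of head and neck squamous cell carcinoma (HNSCC) cells to interferon alpha (IFNα). The 6 genes were taken by symbol from a table of 60099 genes: ISG15 itself, the activating enzyme UBA7, the conjugating enzyme UBE2L6, the ligase HERC5, its relative HERC6 and the protease USP18. RNA of Cal27 and HN30, established HNSCC cell lines, was sequenced 24 h after addition of IFNα or without it. The 12 samples are named by a letter, A to F, with a replicate number, 1 or 2 (sample A1 and so on). The letters A and D mark untreated controls, B and E the low dose of 20 ng/ml, and C and F the high dose of 200 ng/ml. Every dose occurs once among A, B and C and once among D, E and F, and these groups of letters were taken as the 2 lines. Which set is Cal27 and which is HN30 is not given in the sources used here, so they are called set A-C and set D-F. Nothing in the labels says whether replicates came from separate cultures, so the p-values measure the spread between these samples, which may be technical.

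ISG15 is a small protein built of tandem ubiquitin-like domains. UBA7 activates it, UBE2L6 carries it and a ligase, in human cells mainly HERC5, joins it to newly made proteins, in a chain of reactions parallel to that of ubiquitin. USP18 cuts ISG15 off its targets and also binds the interferon receptor chain IFNAR2, where it dampens signalling. All of these genes are known as targets of type I interferon, which acts through the factor ISGF3 on a DNA element called the ISRE.

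The windows of 250 bases before to 50 bases after the start of transcription are shown for the modifier and its main ligase, the members whose windows held the core letters of that element. They are RefSeq sequences on GRCh38.p14, read 5′ to 3′ on the + strand, with matches in capitals to the core searched on both strands, which is GAAA, any 2 bases and GAAA again. The matches of HERC5 lie on the other strand.
ISG15, chr1:1013247-1013546: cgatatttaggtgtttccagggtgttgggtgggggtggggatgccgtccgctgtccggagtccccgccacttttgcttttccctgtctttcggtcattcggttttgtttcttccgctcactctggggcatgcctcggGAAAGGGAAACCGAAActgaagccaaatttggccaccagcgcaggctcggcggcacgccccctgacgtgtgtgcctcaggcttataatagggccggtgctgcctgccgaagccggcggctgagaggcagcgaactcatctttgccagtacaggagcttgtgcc
HERC5, chr4:88456869-88457168: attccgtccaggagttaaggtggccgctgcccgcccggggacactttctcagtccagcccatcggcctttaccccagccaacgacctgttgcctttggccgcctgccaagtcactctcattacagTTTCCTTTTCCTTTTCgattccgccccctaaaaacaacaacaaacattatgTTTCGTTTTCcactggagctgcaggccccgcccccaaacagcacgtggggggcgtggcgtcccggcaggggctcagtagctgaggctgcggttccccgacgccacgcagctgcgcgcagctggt
ISG15 held 2 overlapping matches, starting 113 and 107 bases before the start of transcription, and HERC5 held 3, starting 125, 119 and 74 bases before it, of which the first 2 overlap. Of 35116 RefSeq promoter windows of this length, 1255 (3.57%) held at least 1 match. Of the 6 members, 4 had an entry, with 5 windows in all, and the windows of UBE2L6 and HERC6 held no match. A match describes the letters of the window and not a bound site. The entries do not cover UBA7 and USP18.

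Estimated counts summed to 10517448 in the shallowest sample and 16056734 in the deepest, and the controls were all deeper than the samples at 200 ng/ml. At these depths 3 counts, the smallest level read here, correspond to 0.187 to 0.285 CPM, which allows for counting error only, and all 6 members lay far above it in every sample. All 11 squamous epithelial markers reached 1 TPM (a transcript level scaled for length and depth) in at least 1 sample, although KRT14 was at 41.9 to 49.2 TPM in set A-C and at 0 to 0.254 TPM in set D-F. Of 6 leukocyte markers, CD68 and CD14 alone reached 1 TPM. The list summed to 5.34 to 12.5 TPM in controls, 13.5 to 30.1 TPM at 20 ng/ml and 18.6 to 40.6 TPM at 200 ng/ml, almost all of it CD68, while CD3E was at 0 in every sample and PTPRC was at or below 0.0425 TPM. Of the other lists, 1 of 3 endothelial markers (CDH5, in set A-C alone) and 3 of 6 fibroblast markers reached 1 TPM.

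ISG15, the modifier, was the member with the highest level in every letter but D. Its gene (ENSG00000187608) lies on chromosome 1 at 1001138-1014541 on the + strand of GRCh38. In the controls of set A-C, ISG15 was at 86.3 TPM in A1 and 130 TPM in A2. It stood at 923 and 924 TPM at 20 ng/ml and at 825 and 723 TPM at 200 ng/ml. In set D-F, ISG15 was at 21.5 and 33.8 TPM in the controls, at 1130 and 967 TPM at 20 ng/ml and at 1367 and 1506 TPM at 200 ng/ml. Treated and control samples therefore lay far apart in both sets, and the D controls lay below the A controls. In TPM the order of the letters was D, A, C, B, E and F with no overlap between neighbours. In CPM normalized for the edgeR fit described below, B (419 and 413) and E (438 and 387) overlapped. Because these are bulk samples, more RNA per cell and more cells that express the gene cannot be told apart.

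Counts of all samples were fitted together with edgeR (quasi-likelihood test), and a gene is called higher or lower when it changed 2-fold or more and its p, adjusted by Benjamini-Hochberg over all 19944 genes tested, did not exceed 0.05. All 6 members were called higher at 200 ng/ml against control, where 426 genes were called (2.14% of those tested) and 1.58% were called higher. ISG15 rose by 4.20 ± 0.16 on the log2 scale (SE, 4 treated samples against 4 controls, edgeR adjusted p = 1.88e-07). At 20 ng/ml, where 1.15% of genes were called and 0.963% were called higher, all 6 members were again called higher, and ISG15 rose by 4.10 ± 0.16 (adjusted p = 3.02e-07). By fold change ISG15 ranked 52nd from the top of all tested genes at 200 ng/ml and 39th at 20 ng/ml. Both comparisons used the same controls.

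**Figure D1:**
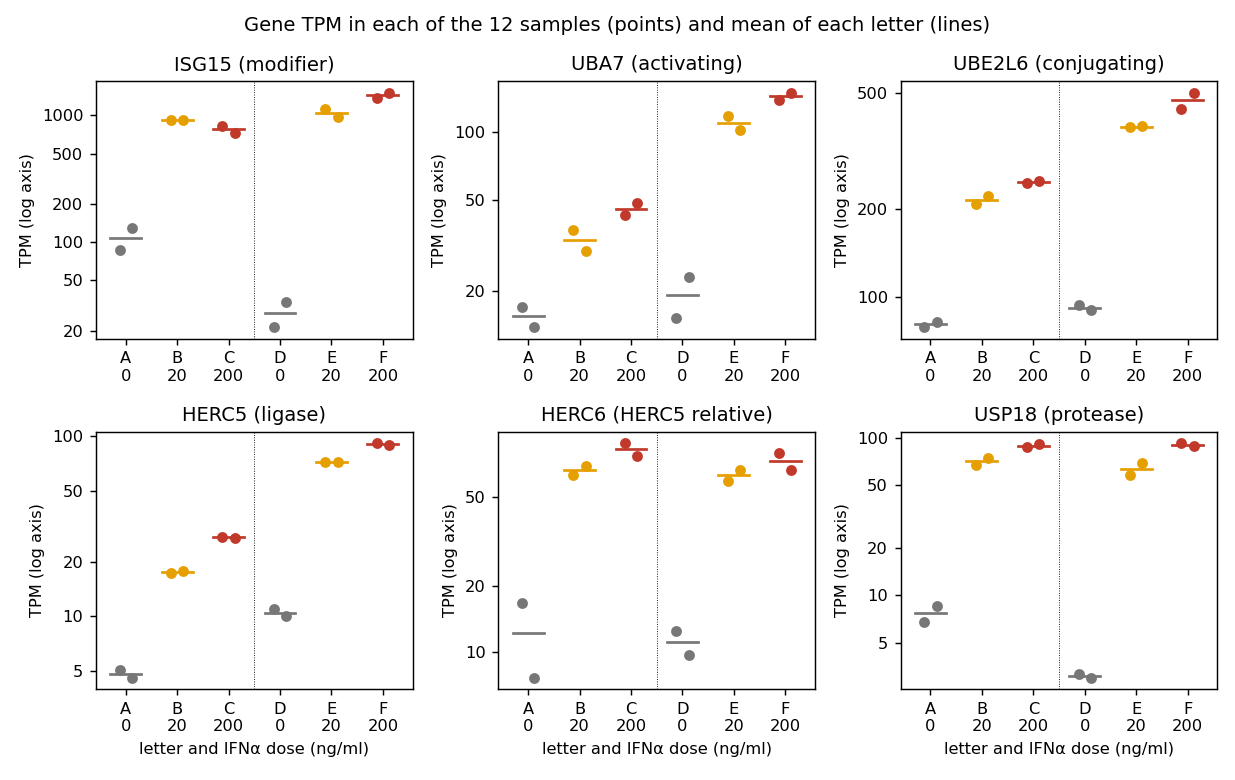
Level of each member in TPM (log axis, with a different range in each panel) in the 12 samples, by letter and IFNα dose in ng/ml, with set A-C left and set D-F right of the dotted line. Points are samples and lines are means of 2. Treated samples lie above the controls of their set for every member, and ISG15 runs from 21.5 TPM in D1 to 1506 TPM in F2.

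UBA7, which activates ISG15 at the start of the chain, was measured on chromosome 3 at 49805207-49813946 on the - strand (ENSG00000182179). UBA7 was at 17.1 and 13.9 TPM in the A controls, 37.0 and 29.8 TPM in B, and 43.1 and 48.6 TPM in C. In set D-F it was at 15.3 and 23.1 TPM in the controls, 117 and 102 TPM in E, and 137 and 148 TPM in F. The controls of the sets overlapped, whereas every treated sample of set D-F exceeded every treated sample of set A-C. UBA7 rose by 2.40 ± 0.11 on the log2 scale at 200 ng/ml (edgeR adjusted p = 7.46e-07) and by 2.06 ± 0.11 at 20 ng/ml (adjusted p = 2.70e-06).

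UBE2L6, the conjugating enzyme, had the smallest log2 fold change of the members averaged over the sets, though not in set A-C, where UBA7 changed least (1.59 against 1.64 at 200 ng/ml and 1.32 against 1.43 at 20 ng/ml). After ISG15 it had the highest level in every treated letter. Its gene (ENSG00000156587) lies on chromosome 11 at 57551656-57568284 on the - strand. UBE2L6 was at 78.9 and 82.2 TPM in A, 208 and 223 TPM in B, and 245 and 251 TPM in C. In D it was at 93.9 and 90.1 TPM, in E at 384 and 385 TPM, and in F at 443 and 502 TPM. In TPM the letters stood in the order A, D, B, C, E and F with no overlap. In CPM normalized for the edgeR fit, the controls of A (65.0 and 70.0) and D (71.4 and 69.7) overlapped. In D, UBE2L6 was the member with the highest level, with a mean of 92.0 TPM against 27.6 TPM for ISG15. UBE2L6 rose by 1.97 ± 0.06 at 200 ng/ml (edgeR adjusted p = 2.64e-08) and by 1.72 ± 0.06 at 20 ng/ml (adjusted p = 9.43e-08).

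HERC5 and HERC6, both ligases of the HERC family, are neighbours on the + strand of chromosome 4. HERC6 (ENSG00000138642) spans 88378739-88443111 and ends 14006 bases before the start of HERC5 (ENSG00000138646, 88457117-88506163). HERC5 was at 5.04 and 4.57 TPM in A, 17.4 and 17.8 TPM in B, and 27.8 and 27.3 TPM in C. In set D-F it was at 11 and 10 TPM in D, 72.2 and 72.3 TPM in E, and 91.5 and 89.7 TPM in F. Replicates of HERC5 lay close together and no letters overlapped. HERC5 rose by 2.78 ± 0.06 at 200 ng/ml (edgeR adjusted p = 3.63e-09) and by 2.31 ± 0.06 at 20 ng/ml (adjusted p = 1.80e-08).

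HERC6 is the main ISG15 ligase of mice, while its part in human cells is less clear. HERC6 was at 16.7 and 7.70 TPM in A, 63.1 and 69.6 TPM in B, and 87.7 and 77.2 TPM in C. In set D-F it was at 12.5 and 9.72 TPM in D, 59.4 and 66.4 TPM in E, and 79.5 and 66.3 TPM in F. In TPM, HERC6 thus separated treated from control samples, but neither the sets nor the doses in set D-F. The CPM normalized for the edgeR fit did not overlap there. Treated samples were at 127 to 162 CPM in set A-C and at 102 to 125 CPM in set D-F, with E (102 and 106) below F (125 and 113). HERC6 rose by 2.98 ± 0.10 at 200 ng/ml (edgeR adjusted p = 5.56e-08) and by 2.73 ± 0.10 at 20 ng/ml (adjusted p = 1.20e-07). No run of 31 bases was shared between the annotated transcripts of HERC5 and HERC6, so reads of that length that match one perfectly do not match the other.

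USP18, the deconjugating protease, rose from a low level and, averaged over the sets, nearly as far as ISG15. By set the order differed, with log2 values at the high dose of 3.54 against 2.79 for ISG15 in set A-C and of 4.78 against 5.60 in set D-F. Its gene (ENSG00000184979) lies on chromosome 22 at 18149899-18177397 on the + strand. USP18 was at 6.78 and 8.60 TPM in A, 67.1 and 75.1 TPM in B, and 87.7 and 91.6 TPM in C. In set D-F it was at 3.16 and 3.00 TPM in D, 57.9 and 68.99 TPM in E, and 92.6 and 88.9 TPM in F. The D controls lay below the A controls. In TPM the 20 ng/ml samples of the sets overlapped, and so did those at 200 ng/ml. In CPM normalized for the edgeR fit they did not. USP18 was there at 91.0 and 100 CPM in B against 67.1 and 82.5 CPM in E, and at 121 and 123 CPM in C against 108 and 103 CPM in F. USP18 rose by 4.16 ± 0.11 at 200 ng/ml (edgeR adjusted p = 1.37e-08) and by 3.74 ± 0.11 at 20 ng/ml (adjusted p = 3.37e-08). USP41, a near copy of USP18 on the same chromosome, shares 28.8% of the 31-base runs of USP18, so reads could be divided wrongly between them. With the counts of both summed, the change at 200 ng/ml was 4.14 ± 0.12 (adjusted p = 1.95e-08).

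All 6 members were also called higher within each set at each dose. At 200 ng/ml, 2.18% of genes were called in set A-C (1.41% higher) and 2.09% in set D-F (1.67% higher) while at 20 ng/ml 0.712% (0.632% higher) and 1.41% (1.20% higher), respectively. The sets differed in how far some members rose. ISG15 changed by 2.79 ± 0.22 in set A-C and by 5.60 ± 0.25 in set D-F at 200 ng/ml, both log2 values. In mean TPM these were rises of 7.17-fold and 52.0-fold. The difference in log2 fold change (D-F minus A-C) was 2.81 ± 0.30 (edgeR interaction, adjusted p = 0.00416), and it was called under each of the 12 fits that left out 1 sample.

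UBA7 changed by 1.59 ± 0.16 in set A-C and 3.21 ± 0.16 in set D-F at 200 ng/ml, a difference of 1.62 ± 0.22 (edgeR interaction, adjusted p = 0.0096). This call was lost when the test used log2(TPM + 1) in place of counts (1.35 ± 0.28, limma adjusted p = 0.0597). USP18 changed by 3.54 ± 0.15 and 4.78 ± 0.17, a difference of 1.24 ± 0.21 (edgeR adjusted p = 0.0252). The USP18 call was lost without any 1 of A2, C2, D1, D2, F1 or F2, where the difference was between 1.03 and 1.25 and the adjusted p rose to as much as 0.103 without D1, and it was also lost with the compared samples alone (1.24, adjusted p = 0.0506). These 3 members called for a difference compare with 0.998% of all genes, and 0.622% with a stronger rise in set D-F.

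The other enzymes differed less between the sets. UBE2L6 changed by 1.64 ± 0.08 in set A-C and 2.29 ± 0.08 in set D-F, a difference of 0.64 ± 0.11 that had an adjusted p of 0.0295 by edgeR, a level that 1.88% of genes reached at any fold, and was below 2-fold. Without 1 sample the UBE2L6 difference was 0.53 to 0.73, and it did not keep that level in every such fit. The HERC5 difference was 0.51 ± 0.12 (adjusted p = 0.072) and that of HERC6 was -0.08 ± 0.19 (adjusted p = 0.89). Leaving out A2 or D2 turned the sign of the HERC6 difference (0.11 without A2 and 0.01 without D2). HERC6 changed by 3.02 ± 0.14 in set A-C and by 2.94 ± 0.14 in set D-F.

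At 20 ng/ml the difference between the sets was called for ISG15 (2.13 ± 0.30, edgeR adjusted p = 0.0203) and UBA7 (1.49 ± 0.22, adjusted p = 0.0223), where 0.231% of genes were called and 0.165% rose further in set D-F. Neither call held throughout. That of ISG15 was lost without any 1 of A2, B1, B2, E1 or E2 (adjusted p of 0.0645 to 0.0966), and that of UBA7 without any 1 of A1, A2, B1, B2, E1, E2, F1 or F2 (0.0505 to 0.0955). HERC5 differed by 0.88 ± 0.12 (edgeR adjusted p = 0.0203, a level that 0.371% of genes reached at any fold), below 2-fold. Without 1 sample the HERC5 difference was 0.82 to 0.92, and it did not keep that level in every such fit. USP18 differed by 1.09 ± 0.21 (adjusted p = 0.0748, but called by DESeq2 at 1.09, adjusted p = 0.00538), UBE2L6 by 0.58 ± 0.11 (adjusted p = 0.0796) and HERC6 by 0.02 ± 0.18 (adjusted p = 1). The comparisons at 20 and 200 ng/ml share their controls.

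**Figure D2:**
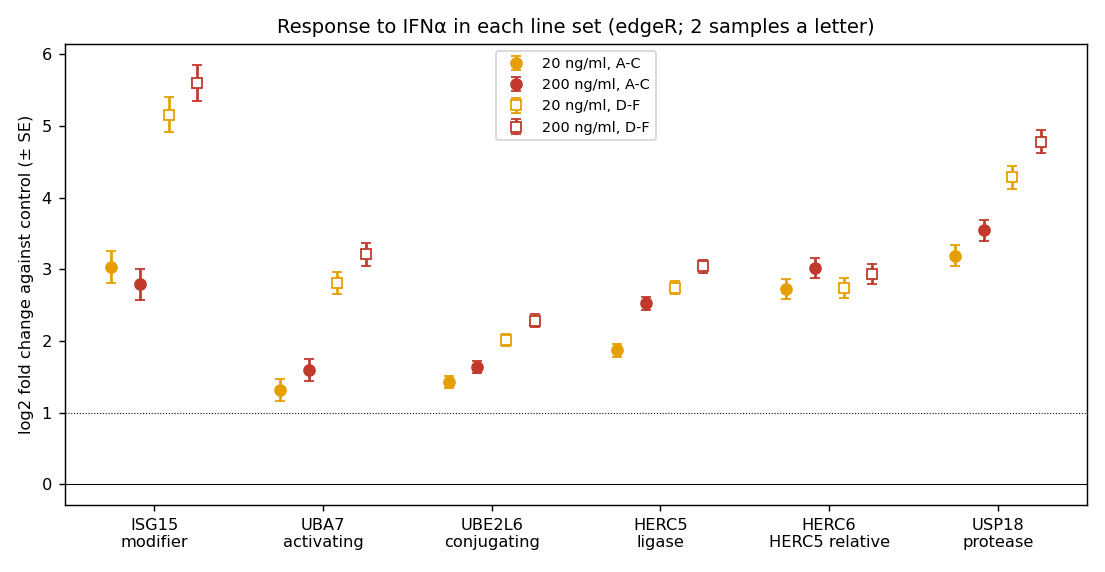
Log2 fold change against control (edgeR, ± SE, 2 treated samples against 2 controls of the same set) for each member at 20 and 200 ng/ml in set A-C (filled circles) and set D-F (open squares), with the 2-fold line dotted. ISG15 runs from 2.79 in set A-C to 5.60 in set D-F at 200 ng/ml, whereas the 4 values of HERC6 lie between 2.72 and 3.02.

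The starting levels differed for some of the same genes. Between the controls, ISG15 was lower in D than in A by a log2 value of -2.14 ± 0.22 (edgeR adjusted p = 4.87e-05, 2 samples each), and USP18 by -1.45 ± 0.16 (adjusted p = 7.67e-05). HERC5 was higher in D by 0.96 ± 0.09 (adjusted p = 2.57e-05), just below 2-fold, and it passed 2-fold without D2 (1.01) and with limma on log2(TPM + 0.1) (1.11). UBA7 (0.09 ± 0.16, adjusted p = 0.665), UBE2L6 (0.06 ± 0.08, adjusted p = 0.561) and HERC6 (-0.33 ± 0.14, adjusted p = 0.0704) were not called, and without D2 the UBA7 value was -0.17. Of all genes tested, 26.6% were called between the controls. At such a share a list this short can hold 2 called genes. The 2 members called therefore do not set the members apart from other genes. The same controls enter the fold changes of each set, so a low control level and a large fold change in set D-F are not independent measurements.

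Most of the rise was already present at 20 ng/ml. The increase in mean TPM at 20 ng/ml amounted to 72.5% of that at 200 ng/ml for ISG15 in set D-F, to 73.1% for UBA7, 76.9% for UBE2L6, 77.1% for HERC5, 83.8% for HERC6 and 68.9% for USP18. In set A-C it was 59.1% for UBA7, 80.4% for UBE2L6, 56.2% for HERC5, 77.1% for HERC6 and 77.4% for USP18. ISG15 stood apart there, at 122%, since both C samples lay below both B samples, while in set D-F both F samples lay above both E samples. The C samples also had the highest share of mitochondrial counts (6.51% and 7.82%, against 3.73% to 5.22% in the other 10 samples), and its part in the ISG15 level was not tested. That difference in direction was not past the test: 200 against 20 ng/ml gave -0.24 ± 0.20 in set A-C and 0.44 ± 0.20 in set D-F, a difference of 0.68 ± 0.28 (edgeR adjusted p = 0.528).

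No member was called between 200 and 20 ng/ml, where 9 genes (0.0451%) were called. The members' log2 differences were 0.48 ± 0.06 for HERC5, 0.42 ± 0.09 for USP18, 0.34 ± 0.10 for UBA7, 0.25 ± 0.06 for UBE2L6, 0.25 ± 0.09 for HERC6 and 0.10 ± 0.14 for ISG15. HERC5 had an edgeR adjusted p of 0.0188, a level that 0.135% of genes reached at any fold. Without 1 sample its adjusted p ran from 0.0267 to 0.111. The other members had edgeR adjusted p-values of 0.203 to 0.882. No member was called with an unadjusted p of at most 0.05 or by DESeq2 either. Those rules also require a fold of at least 2, and all log2 differences lay far below it. At any fold, the smallest adjusted p among the alternatives (edgeR, DESeq2 or limma) was 1.19e-06 for HERC5, 0.0137 for USP18 and 0.0370 for UBE2L6. It stayed at or above 0.176 for UBA7, ISG15 and HERC6.

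Because TPM is scaled for transcript length, the level of each enzyme could be set against that of ISG15 in the same sample. UBE2L6 stood at 91.5% and 63.4% of the ISG15 level in A1 and A2, and at 437% and 267% in D1 and D2. At 200 ng/ml it was at 29.7%, 34.7%, 32.4% and 33.4% in C1, C2, F1 and F2, the narrowest spread of the 5 enzymes on the log2 scale. The log2 ratio of UBE2L6 to ISG15 was 0.69 ± 1.301 in controls and -1.62 ± 0.09 at 200 ng/ml (SD, n = 4 each), a difference of -2.31 (exact permutation test within sets, two-sided p = 0.0556) made of -1.25 in set A-C and -3.38 in set D-F. This is the smallest p that the 36 arrangements allow, so no ratio could pass 0.05.

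UBA7 was at 10.7% to 71.0% of the ISG15 level in controls and at 5.22% to 10.03% at 200 ng/ml, a log2 difference of -2.06 (exact permutation p = 0.0556) made of -1.30 in set A-C and -2.81 in set D-F. These gene levels include noncoding transcripts. Transcripts annotated as protein coding held 19.4% to 38.4% of the UBA7 level, 44.4% to 84.3% of the HERC6 level and all of the ISG15 level. The log2 difference was -1.49 for HERC5 (exact p = 0.111) and -1.51 for HERC6 (exact p = 0.167), with set A-C at -0.35 and -0.01 and set D-F at -2.62 and -3.02, respectively. USP18 held 6.63% to 14.7% of the ISG15 level in controls and 5.90% to 12.7% at 200 ng/ml, a log2 difference of -0.09 (exact p = 0.944) made of 0.68 in set A-C and -0.86 in set D-F. Leaving out D1 turned its sign, to 0.09. At 20 ng/ml the log2 differences were -2.38 for UBA7, -2.46 for UBE2L6 and -1.87 for HERC5 (exact p = 0.0556 each), -1.67 for HERC6 (exact p = 0.167) and -0.42 for USP18 (exact p = 0.278). That of USP18 was 0.09 in set A-C and -0.92 in set D-F, and -0.24 without D1. After Benjamini-Hochberg adjustment over these 10 comparisons the smallest p was 0.111.

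**Figure D3:**
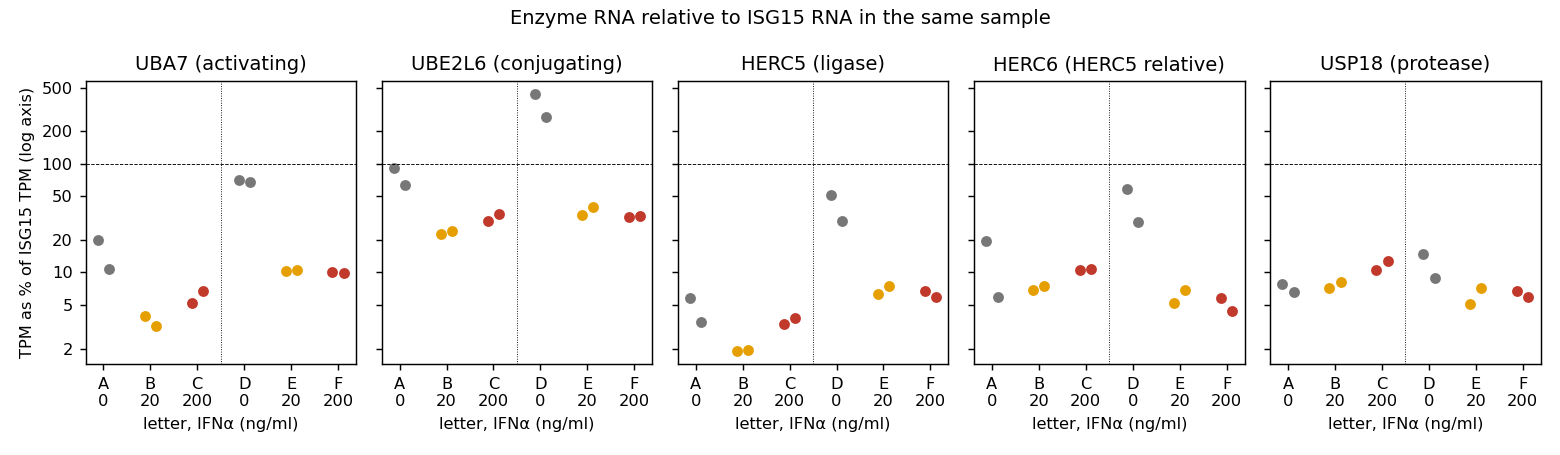
TPM of each enzyme as a percentage of the ISG15 TPM of the same sample (log axis shared by the panels, dashed line at equal levels) by letter and IFNα dose in ng/ml, points being samples. UBE2L6 exceeded ISG15 in D1 and D2 alone (437% and 267%), and at 200 ng/ml it lay between 29.7% and 34.7%.

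The deposited transcript values show which RNAs carried these levels, with the reservation that reads of shared exons are divided by estimation. In all samples but A1, ISG15-201 (ENST00000379389, 711 bases, protein coding) held 94.3% to 99.8% of the ISG15 level. In A1 it held 14.6%, and ISG15-203 (ENST00000624697, 787 bases, protein coding, starting 12285 bases further upstream) held 84.5%, with 72.9 TPM against 0.41 TPM in A2. The transcripts share 77.5% of the 31-base runs of ISG15-201. The share of ISG15-201 was 76.5% ± 41.3 in controls and 99.6% ± 0.19 at 200 ng/ml (SD, n = 4, exact permutation p = 0.0556), a difference of 42.8 points in set A-C and 3.44 points in set D-F. The mean difference was 1.99 points without A1 and 44.2 without A2.

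UBA7 was spread over 11 transcripts, of which 9 are annotated as retained introns and 1, UBA7-201 (ENST00000333486, 3299 bases), as protein coding. UBA7-201 held between 19.4% and 38.4% of the gene level. It stood at 3.32 and 4.66 TPM in A, 12.3 and 11.3 TPM in C, 3.60 and 4.77 TPM in D, and 51.5 and 56.9 TPM in F. The coding transcript was higher in both treated samples than in both controls of each set. Its share was 24.3% ± 6.35 in controls and 32.0% ± 7.30 at 200 ng/ml (exact permutation p = 0.222), with a difference of -0.48 points in set A-C and 15.9 points in set D-F. Without A1 the mean difference fell from 7.70 to 4.19 points. The retained-intron transcripts UBA7-203, UBA7-205 and UBA7-204 held 23.5%, 13.7% and 4.59% of the level at 200 ng/ml and 17.9%, 13.2% and 12.8% in controls.

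HERC6-201 (ENST00000264346, 3779 bases, protein coding) held 46.1% ± 16.0 of the HERC6 level in controls and 70.4% ± 9.64 at 200 ng/ml (exact permutation p = 0.111). The short retained-intron transcript HERC6-208 (638 bases) held 22.8% in controls and 9.53% at 200 ng/ml, HERC6-206, also a retained intron, reached 10.3% at 20 ng/ml, and HERC6-203 held 50.9% in A2 and at most 4.98% elsewhere. A1 and A2 had 278 and 261 estimated HERC6 counts and 16.7 and 7.70 TPM, and their HERC6 CPM values were 22.4 and 16.8. The part that the division of reads between long and short transcripts plays in the TPM values was not tested. UBE2L6-201 held 92.2% ± 2.78 in controls and 95.3% ± 1.33 at 200 ng/ml (exact permutation p = 0.0556), a difference of 3.02 points that was 1.78 without A1. HERC5-201 held 93.9% ± 1.08 and 94.0% ± 4.99 (exact permutation p = 1), and USP18 has 1 transcript in the table. After Benjamini-Hochberg adjustment over the 5 shares tested the smallest value was 0.139.

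**Figure D4:**
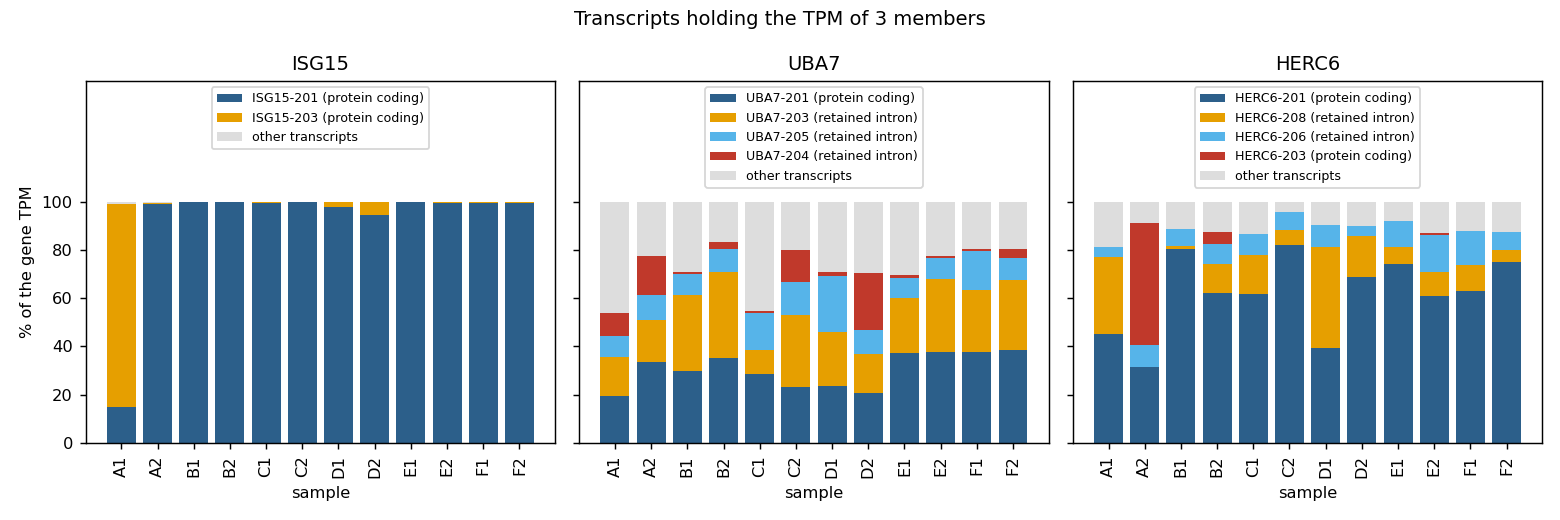
Share of the gene TPM held by the leading transcripts of ISG15, UBA7 and HERC6 in each of the 12 samples (stacked bars, in percent, others in grey). ISG15-203 holds 84.5% in A1 and at most 5.72% in any other sample, and UBA7-201 holds 19.4% to 38.4%.

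The genes most like ISG15 over the 12 samples were found by the root mean square difference in log2(TPM + 1), each gene centred on its own mean, among 18240 genes. MX1, a dynamin-like antiviral GTPase, was nearest (0.42), followed by IFI6 (0.43), the member USP18 (0.49), IFIT3 (0.51), OAS2 (0.51) and IFIT1 (0.54). IFI6 stood at 29.6 to 29.7 TPM in A, 5.31 to 8.25 TPM in D and 445 to 473 TPM in F, with lower controls in D, as for ISG15. MX1 (66.2 to 71.2 TPM in A and 29.9 to 31.1 TPM in D), IFIT3, OAS2 and IFIT1 also had lower controls in D. These genes were chosen for likeness over the same samples, so a shared pattern follows from the choice. The other members were further away, HERC6 in place 44, UBE2L6 in 64, UBA7 in 75 and HERC5 in 76. USP18 was nearest to IFIT3 (0.27), OAS1 (0.28), EPSTI1 (0.29), LGALS9 (0.31) and MX1 (0.36), with ISG15 in place 13. These distances describe 12 samples that share lines and doses.

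Other genes of the ubiquitin-like systems were set beside the members. Of 64 listed modifiers, enzymes, proteases and binding partners, 62 passed the filter on low counts (not UBD or ITGAL). At 200 ng/ml 2 of 62 were called higher and 0 lower, against 1.58% and 0.552% of all genes, with a median log2 fold change of -0.03 beside -0.01 over all genes. They were STAT2, a subunit of ISGF3 that also binds USP18, at 1.80 ± 0.08 (edgeR adjusted p = 6.80e-07), and USP41 at 3.53 ± 0.48 (adjusted p = 0.00182). USP41 was estimated from at most 81 counts per sample and shares 38.7% of its 31-base runs with USP18. At 20 ng/ml both were called again (1.57 ± 0.08 and 3.15 ± 0.48), and the ubiquitin-like modifier SUMO3 was lower (-1.43 ± 0.29, adjusted p = 0.0265) but not called at 200 ng/ml (-0.74 ± 0.29, adjusted p = 0.157).

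Neither the 9 activating enzymes and partners nor the 15 conjugating enzymes held a called gene at either dose. Of all genes, 2.14% were called at 200 ng/ml and 1.15% at 20 ng/ml, and at such shares lists this short can hold no called gene. UBA1, which activates ubiquitin, was at -0.15 ± 0.05, and UBE2L3, the closest relative of UBE2L6, at 0.02 ± 0.05 (edgeR adjusted p = 0.121 and 0.897, 200 ng/ml). UBE2L6 and UBE2L3 share no run of 31 bases. The ubiquitin gene UBB was not called (-0.30 ± 0.16). Among 6 further ligases, TRIM25, which also joins ISG15 to proteins, had 0.90 ± 0.07 (adjusted p = 6.41e-05), below 2-fold averaged over the sets, and was called in set D-F alone (1.02, adjusted p = 0.00033), with a difference between the sets of 0.25 ± 0.15 (adjusted p = 0.413). RPS27A, which encodes ubiquitin fused to a ribosomal protein and was chosen after its values were seen, was called lower in set A-C at 200 ng/ml (-1.29 ± 0.14, edgeR adjusted p = 0.000765). In set D-F it was at -0.32 ± 0.13 (adjusted p = 0.231), and the sets differed by 0.97 ± 0.19 (adjusted p = 0.0404), below 2-fold. ARIH1, a ubiquitin ligase, was at 0.00 ± 0.14. IFNAR2, the receptor chain that USP18 binds, was at 0.10 ± 0.18 (adjusted p = 0.824).

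**Figure D5:**
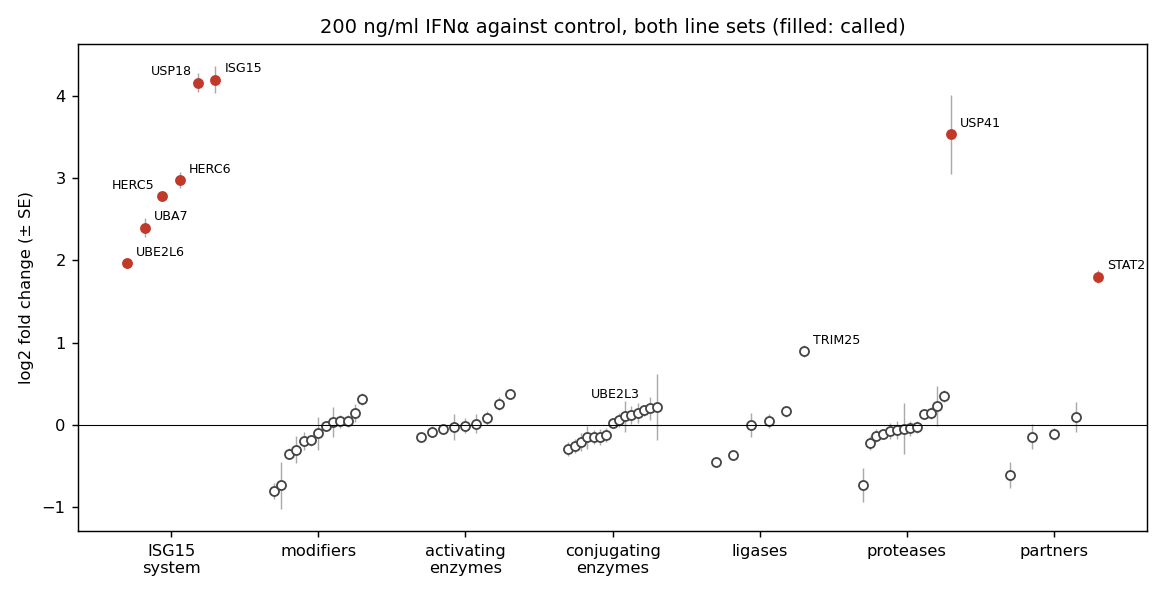
Log2 fold change at 200 ng/ml IFNα against control averaged over both sets (edgeR, ± SE) for the 6 members and 62 related genes by role. Filled points are called, and STAT2 (1.80) and USP41 (3.53) are the called genes outside the members.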

How the data were processed

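Total RNA of the 12 samples was depleted of rRNA, made into strand-specific libraries and sequenced by the authors on the HiseqXTen platform. Samples were grouped by their titles, and 20 ng/ml comes from the description of the design. The submitters' processing notes name Trimmomatic 0.36, HISAT2 2.1.0, StringTie 1.3.3b and GRCh38.p10, without their settings. The authors deposited estimated counts (whole numbers, not scaled), TPM and FPKM values per gene and transcript, and FPKM values were not used.

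The estimated counts were fitted with edgeR 4.0.16 in R 4.3.3 (TMM, filterByExpr, quasi-likelihood, 6 groups of set and dose, contrasts averaged over sets unless a set is named). An SE was obtained from each log2 fold change and its F statistic (ratio to √F). TPM ratios (pseudocount 0.01) and transcript shares were compared by exact permutation within sets, two-sided, with Python 3.11.15. Transcript types and sequences came from GENCODE on GRCh38. The fits were tested on simulated data. DESeq2 1.42.0 and limma 3.58.1 on log2(TPM + pseudocount) were alternatives, among others given in the closing section. Replicate numbers did not pair samples (correlation of same-numbered deviations -0.0454 to 0.056).

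Named were all members, related genes called at either dose (up to 8) plus 9 set genes (1 of them is not reported here), the 5 non-members most like ISG15 and USP18, and transcripts holding at least 10% of a gene at 1 dose. The members and lists were chosen with earlier results of these data known.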

Additional observations from a re-analysis of the deposited data

Results flagged for a closer look

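The response to IFNα differed between the sets, by an edgeR interaction term with an adjusted p of at most 0.05, for 4 members at 200 ng/ml and 3 at 20 ng/ml (log2, D-F minus A-C), a level that 1.88% and 0.371% of all genes reached. At 200 ng/ml the difference was 2.81 for ISG15 (adjusted p = 0.00416), 1.62 for UBA7 (0.0096), 1.24 for USP18 (0.0252) and 0.64 for UBE2L6 (0.0295). At 20 ng/ml it was 2.13 for ISG15 (0.0203), 1.49 for UBA7 (0.0223) and 0.88 for HERC5 (0.0203). In each case both sets rose and set D-F rose further. USP18 and UBE2L6 at 200 ng/ml, and ISG15, UBA7 and HERC5 at 20 ng/ml, did not keep this level in every fit without 1 sample. At 200 ng/ml the differences in those fits were 1.03 to 1.42 for USP18 and 0.53 to 0.73 for UBE2L6. At 20 ng/ml they were 1.79 to 2.52 for ISG15, 1.24 to 1.76 for UBA7 and 0.82 to 0.92 for HERC5.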

How the results depend on the processing

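All 6 members were called higher in the 6 treated-against-control contrasts under all 23 alternatives (138 of 138 outcomes). Of these alternatives, 2 (an unadjusted p and any fold) only loosened the threshold of the main fit, so no call could be lost. The other 21 were separate fits. For the difference between sets at 20 ng/ml, 2 members were called, but 0 with the replicate number as a block or with the compared samples alone, 1 with limma on log2(TPM + 1) or log2(TPM + 0.1), and 0 to 2 when 1 sample was left out, while 3 were called with DESeq2 (USP18 gained), with an unadjusted p and at any fold. At 200 ng/ml 2 to 3 were called without 1 sample and 2 with the replicate block or the compared samples alone, where USP18 lost its call (1.23, adjusted p = 0.062, and 1.24, adjusted p = 0.0506). The block left the other member calls of the main contrasts as they were. Between 200 and 20 ng/ml HERC5 alone passed at any fold in the main fit, over both sets and in set A-C (1 member each, against 0). Over both sets, USP18 and UBE2L6 also passed at any fold under an alternative (edgeR, DESeq2 or limma), with adjusted p down to 0.0137 and 0.0370. Neither reached 2-fold. With 2 samples a letter, differences between sets and doses are the least certain.

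The HERC6 difference between sets ranged from -0.29 to 0.11 at 200 ng/ml and from -0.20 to 0.21 at 20 ng/ml without 1 sample, and at 20 ng/ml was -0.0194 with upper-quartile factors, -0.000467 without a filter, and -0.0320 and -0.0364 with limma (pseudocounts 1 and 0.1). For UBA7 the control difference ranged from -0.17 to 0.31 without 1 sample, and the difference between sets in 200 against 20 ng/ml was -0.0681 and -0.0759 with limma, against 0.12. That of UBE2L6 ranged from -0.0210 to 0.148. The USP18 to ISG15 ratio ranged from -0.268 to 0.0936. The HERC5-201 share changed by 0.13 points, by -0.30 from counts, by -0.71 without transcripts under 1 TPM, and by -1.89 to 2.15 without 1 sample. The causes were not tested.

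Counts of called genes moved by over 1.5 times at 200 ng/ml (426) to 846 with an unadjusted p, 1905 at any fold and 279 with limma on log2(TPM + 1), and at 20 ng/ml (229) to 649 and 784 with the first 2. For the difference at 200 ng/ml (199) they ran from 69 with the block to 1253 unadjusted, and at 20 ng/ml (46) from 28 without B2 to 809 unadjusted. Within sets at 200 ng/ml the count in A-C (434) was 180 with the compared samples alone, 240 without A2 and 287 without C2, and at 20 ng/ml in A-C (142) it was 231 with DESeq2, beside rises in both sets with an unadjusted p or at any fold (221 to 1432). Between doses (9) they ran from 0 with the block to 378 unadjusted, and between controls (5310) to 9261 at any fold. Alternatives between doses within a set were added after the data were seen.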

Other observations

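In sample A1 most of the ISG15 level was assigned to ISG15-203, at 72.9 TPM, and the ISG15 gene counts were 519 in A1 and 926 in A2. ISG15-203 reached at most 6.79 TPM in the other 11 samples, where ISG15-201 stood at up to 1500 TPM. The part that the estimation of transcript levels plays in this was not tested.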
